A study of Mus musculus with 15 samples.

Results

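MHC class I molecules carry peptides cut from a cell's own proteins to its surface, where CD8+ T cells and NK cells read them. The 10 genes described here make that route. They are H2-K1 and H2-D1, the classical heavy chains of C57BL/6 mice, B2m, the light chain that every class I heavy chain needs, Tap1 and Tap2, the pair that forms the peptide transporter into the endoplasmic reticulum, Tapbp (tapasin), which tethers empty class I molecules to that transporter, Psmb8, Psmb9 and Psmb10, the catalytic subunits that turn the constitutive proteasome into the immunoproteasome, and Nlrc5, the transactivator of class I genes. All 10 were taken from a list of names, all were found by symbol among the 45706 genes of the count table, and all passed the low-count filter that kept 18983 genes for testing. Most of these genes are known targets of interferon-gamma, which acts in part through the transcription factor Irf1, and haematopoietic cells express them without stimulation.

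RNA was sequenced from bone marrow cells of the femurs of secondary recipient mice, taken by magnetic sorting for absence of lineage markers, a fraction enriched in progenitors. The donors were wild-type (WT) mice, mice without the pro-apoptotic BH3-only gene Puma (Puma-/-), mice of the third generation of breeding without mTerc, the RNA component of telomerase (G3 mTerc-/-Puma+/+), and mice of that generation labelled as lacking both (G3 mTerc-/-Puma-/-). All genotypes, the WT controls included, had gone through serial transplantation of stem and progenitor cells (LSK cells) into lethally irradiated recipients, and the sources used here name no step that separated donor from recipient cells for these libraries. There were 3 WT libraries and 4 of each other genotype.

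Each library held between 102790519 and 158367059 counts, and the members had 6621 or more counts in each library of the fit. Replicate 2 of the samples labelled G3 mTerc-/-Puma-/-, which the study's heatmaps do not draw, was left out of the fit, and the fold changes that it moves most are also given with it. In that library 8 erythroid markers summed to 1464 CPM (the count normalised to library size), beside 25.5 to 229 CPM in the other 14 libraries, and 7 dendritic cell and MHC class II markers summed to 199 CPM, beside 631 to 2305 CPM. Terc was at 0.0098 CPM or less in both mTerc-/- groups and at 0.035 to 0.158 CPM in the others. Bbc3, which encodes Puma, was at 5.02 to 6.80 CPM in Puma-/- libraries but at 13.5 to 17.03 CPM in the samples labelled G3 mTerc-/-Puma-/-, within the 9.67 to 23.5 CPM of WT, so the Puma genotype of those libraries goes against the count of the targeted gene and they are named by their label throughout. The progenitor markers Mpo, Elane and Ctsg had medians of 9865, 3545 and 1957 CPM, and no T and NK cell marker of 8 was at 0 in any library. Xist, the RNA of the inactive X chromosome, was at 464 to 865 CPM in Puma-/- libraries. That range overlaps neither with WT (1.72 to 417 CPM) nor with G3 mTerc-/-Puma+/+ (0.18 to 88.6 CPM). In the samples labelled G3 mTerc-/-Puma-/- Xist was at 0.39 to 659.5 CPM, which overlaps with each other genotype.

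Per kilobase of exon, the scale on which genes can be set against each other, B2m was the highest of the 10 genes, with a mean of 1559 CPM per kilobase over the 14 libraries. H2-D1 followed with 642 CPM per kilobase and H2-K1 with 499.8 CPM per kilobase. The processing and loading genes were well below these heavy chains, with Psmb10 at 77.4, Tapbp at 63.4, Psmb8 at 59.5, Tap1 at 45.9, Psmb9 at 41.7 and Tap2 at 28.5 CPM per kilobase. Nlrc5 was the lowest, at 10.95 CPM per kilobase. The ranges over libraries of H2-D1 (516 to 821) and H2-K1 (393 to 649.8) overlapped. Those of Psmb10 (68.2 to 91.4) and Tapbp (49.98 to 71.5) overlapped as well, as did Tapbp and Psmb8 (51.7 to 67.1). The same held for Psmb8 and Tap1 (36.5 to 61.9), and for Tap1 and Psmb9 (34.7 to 50.1). Such ranges alone do not settle the order within a pair, since members could vary together over the libraries. B2m did not overlap with H2-D1 or any other member.

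Of the members, 7 lie in the MHC on chromosome 17 (GRCm38 coordinates, GENCODE vM21 gene spans). H2-K1 (ENSMUSG00000061232) spans chr17:33996017-34000347 and H2-D1 (ENSMUSG00000073411) spans chr17:35262730-35267499. Tapbp (chr17:33915899-33929292) lies before H2-K1, and between the heavy chains stands the cluster Psmb9 (chr17:34181987-34187764), Tap1 (chr17:34187553-34197225), Psmb8 (chr17:34197721-34201454) and Tap2 (chr17:34203527-34216321). B2m lies on chromosome 2 (chr2:122147686-122153083), and Psmb10 (chr8:105935735-105938444) and Nlrc5 (chr8:94434356-94527272) lie on chromosome 8. Tap1 and Psmb9 overlap by 212 exon bases on opposite strands. Exon bases shared with another gene made up 29.0% of Tapbp, 18.5% of Tap2 and 14.7% of Psmb8, mostly with antisense transcripts, and since the strand setting of the counting is not given in the sources used here, reads of these stretches may have been lost or assigned to the partner. Of 2003 windows of 100 bases in the longest H2-D1 transcript, 4.64% occurred in another gene's transcript, most often H2-Q1, while none of the 1520 windows of H2-K1 did.

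Because the members are known to answer to the same transcription factors, the bases before their start sites were searched on both strands for 4 motifs, and the stretches that hold more than 1 motif outside annotated exons are shown with the matches in capitals. The sequences are RefSeq promoters on GRCm38.p6, found for 8 of 10 members, with 250 bases before the start site and 50 after it. The interferon response core GAAANNGAA stood in 8.56% of all 32851 promoters of this length, the interferon-gamma activated site (GAS) TTCNNNGAA in 8.30%, the kappaB motif GGGNNTTCC in 5.82% and the Y box ATTGG in 37.4%. For H2-K1 (chr17:34000348-34000478, minus strand) the capitals mark a kappaB match and a Y box match, and for B2m (chr2:122147528-122147658, plus strand) an interferon response core match and a Y box match.
H2-K1: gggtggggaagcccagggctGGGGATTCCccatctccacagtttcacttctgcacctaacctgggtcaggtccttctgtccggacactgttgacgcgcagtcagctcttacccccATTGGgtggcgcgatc
B2m: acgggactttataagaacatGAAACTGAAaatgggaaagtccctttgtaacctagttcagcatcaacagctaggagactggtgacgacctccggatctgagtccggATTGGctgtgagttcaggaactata

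H2-K1 and H2-D1 carried the same kappaB letters, shown with 10 bases on both sides for H2-K1 (chr17:34000440-34000468, minus strand) and H2-D1 (chr17:35262913-35262941, plus strand). Lined up on this match, the 2 genes had the same base at 121 of 129 positions (93.8%), and the longest run they shared was 47 bases. Psmb8 held the only GAS match of the 8 promoters (chr17:34198088-34198116, plus strand). All 29 bases shown for H2-D1 and for Psmb8 lie inside annotated exons, while 0 of those shown for H2-K1 do.
H2-K1: gcccagggctGGGGATTCCccatctccac
H2-D1: gcccagggctGGGGATTCCccatctcctc
Psmb8: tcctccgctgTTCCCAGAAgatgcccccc
Tap1 and Psmb9 point away from each other, and 225 bases (chr17:34187331-34187555) separate their RefSeq start sites, with 1 Y box match in them. Of the 4 motifs, Tapbp held only Y box matches and Psmb10 none. A match is a description of letters and not evidence of binding. Only 1 pattern was searched for each motif, so a promoter without a match may hold a site with other letters.

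No member passed the test in any comparison between genotypes. With edgeR's quasi-likelihood test and Benjamini-Hochberg adjustment over all 18983 genes, 0 of 10 members had an adjusted p under 0.05 in the 6 pairwise comparisons and in the interaction of mTerc and Puma. For each member the groups of each pair of genotypes overlapped. How many of all genes had groups that did not overlap was not counted, so this overlap does not set the members apart from other genes. The test called few genes of any kind. It called 0.079% of all genes for Puma-/- against WT, 0.0369% for G3 mTerc-/-Puma+/+ against WT, 0.0632% for the samples labelled G3 mTerc-/-Puma-/- against WT, 0.801% for G3 mTerc-/-Puma+/+ against Puma-/-, 0.306% for the samples labelled G3 mTerc-/-Puma-/- against Puma-/-, 0.0738% for these against G3 mTerc-/-Puma+/+ and 0.0527% for the interaction. At an unadjusted p under 0.05, 1 of 10 members passed in the comparison of the 2 mTerc-/- groups, beside 6.22% of all genes, and 0 of 10 passed in the others, where the shares of all genes were 10.1%, 3.86%, 5.45%, 17.1%, 8.42% and 4.93% in the order just given. DESeq2 and limma-voom also called 0 of 10 members in each comparison. The labels do not say that replicates came from separate recipients, so these p-values measure the spread between the libraries, which may be technical in part.

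**Figure D1:**
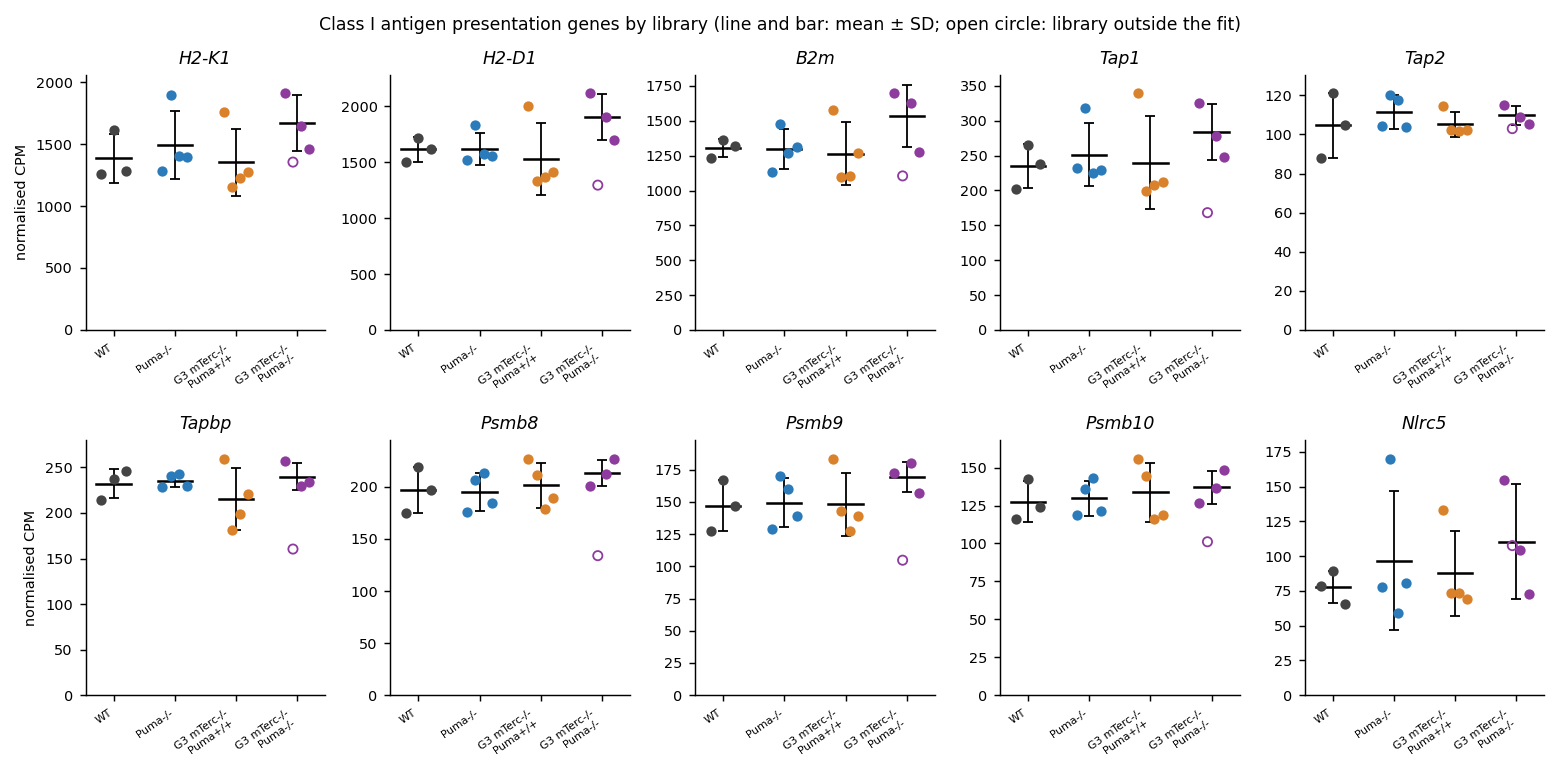
Normalised CPM (linear axes from 0) of each of the 10 genes in each library, by genotype, with the mean and SD of the libraries in the fit as a line and bar and the library outside the fit as an open circle. For H2-D1 the 3 filled points labelled G3 mTerc-/-Puma-/- sit between 1697 and 2116 CPM and the 4 G3 mTerc-/-Puma+/+ points between 1331 and 2008 CPM, so the groups overlap.

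H2-D1, a heavy chain, was the only member at an unadjusted p under 0.05. It stood at 1501, 1721 and 1624 CPM in WT libraries, at 1519, 1833, 1577 and 1557 CPM in Puma-/- libraries, at 2008, 1331, 1368 and 1416 CPM in G3 mTerc-/-Puma+/+ libraries, and at 2116, 1902 and 1697 CPM in the fitted samples labelled G3 mTerc-/-Puma-/-, with 1296 CPM in replicate 2. Thus 3 of 4 G3 mTerc-/-Puma+/+ libraries were the lowest of the 14, and the remaining one was the second highest. Comparison of the 2 mTerc-/- groups gave a log2 fold change of 0.32 (SE 0.14), with means of 1905 ± 209 (SD, n = 3) and 1531 ± 320.0 CPM (SD, n = 4), and an adjusted p of 0.762 by edgeR. With replicate 2 included it was 0.19.

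H2-K1 was at 1256, 1615 and 1284 CPM in WT, at 1285, 1895, 1401 and 1395 CPM in Puma-/-, at 1755, 1154, 1229 and 1273 CPM in G3 mTerc-/-Puma+/+ and at 1909, 1647 and 1460.5 CPM in the samples labelled G3 mTerc-/-Puma-/-, with 1355 CPM in replicate 2. Its log2 fold change between the 2 mTerc-/- groups was 0.31 (SE 0.17, edgeR adjusted p 0.862), and 0.23 with replicate 2. B2m was at 1237, 1363 and 1322 CPM in WT, at 1134, 1479.9, 1267 and 1315 CPM in Puma-/-, at 1579, 1099, 1103 and 1270.2 CPM in G3 mTerc-/-Puma+/+ and at 1696, 1628 and 1278 CPM in the samples labelled G3 mTerc-/-Puma-/-, with 1105 CPM in replicate 2. All 3 genes had 1 high library among the G3 mTerc-/-Puma+/+ libraries, and it was replicate 1 each time. For B2m the log2 fold change between these 2 groups was 0.28 (SE 0.14, edgeR adjusted p 0.824), and 0.18 with replicate 2.

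Of the peptide transporter and loading genes, Tap1 varied most. Tap1 was at 203, 266 and 238 CPM in WT, at 232, 319, 225 and 229.5 CPM in Puma-/-, at 339, 199.8, 208 and 212 CPM in G3 mTerc-/-Puma+/+ and at 326, 278 and 247 CPM in the samples labelled G3 mTerc-/-Puma-/-, with 168 CPM in replicate 2. A single library was far above the rest in each of the Puma-/- and G3 mTerc-/-Puma+/+ groups. Its log2 fold change between the 2 mTerc-/- groups was 0.24 (SE 0.19, edgeR adjusted p 0.936), or 0.087 with replicate 2, and since the study drew Tap1 into a p53 gene list from these libraries, its direction here is not independent of that choice. Tap2, the other transporter chain, ranged only from 88.1 to 121 CPM over the fitted libraries, with genotype means of 105 to 112 CPM, and its log2 fold change in this comparison was 0.063 (SE 0.097), or 0.039 with replicate 2. Tapbp ranged from 181 to 259.5 CPM, with genotype means of 215 to 240.0 CPM and a log2 fold change of 0.16 (SE 0.10), or 0.031 with replicate 2.

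Among the immunoproteasome subunits, the difference between the 2 mTerc-/- groups was larger for Psmb9 than for Psmb8 and Psmb10, and none passed the test. Psmb8 averaged 197 ± 22.05 CPM (SD, n = 3) for WT, 195 ± 17.9 CPM (SD, n = 4) for Puma-/-, 202 ± 21.7 CPM (SD, n = 4) for G3 mTerc-/-Puma+/+ and 213 ± 12.7 CPM (SD, n = 3) for the samples labelled G3 mTerc-/-Puma-/-. Between the last 2 its log2 fold change was 0.082 (SE 0.10), that of Psmb9 was 0.20 (SE 0.13) and that of Psmb10 was 0.034 (SE 0.11), with edgeR adjusted p-values of 0.976, 0.908 and 0.994. For Psmb10 the 95% interval of this log2 fold change ran from -0.21 to 0.28. With replicate 2 included, the value of Psmb9 was 0.050 and those of Psmb8 and Psmb10 changed sign (-0.060 and -0.065), where that library had 134 and 101 CPM, the lowest of all 15 for both genes.

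Nlrc5 was the member with the widest spread, its highest level in the fit being 2.88-fold its lowest, beside 1.30-fold to 1.70-fold for the other 9 genes. It was at 78.3, 89.3 and 65.8 CPM in WT, at 77.8, 170.0, 59.1 and 80.3 CPM in Puma-/-, at 133, 73.5, 73.7 and 69.4 CPM in G3 mTerc-/-Puma+/+ and at 155, 104 and 72.4 CPM in the samples labelled G3 mTerc-/-Puma-/-, with 108 CPM in replicate 2. In each genotype but WT 1 library stood well above the lowest, and the groups overlapped. Its log2 fold change between the 2 mTerc-/- groups was 0.34 (SE 0.34), with a 95% interval from -0.41 to 1.078 and an edgeR adjusted p of 0.963. It was 0.012 without replicate 1 of the samples labelled G3 mTerc-/-Puma-/- and 0.62 without G3 mTerc-/-Puma+/+ replicate 1.

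**Figure D2:**
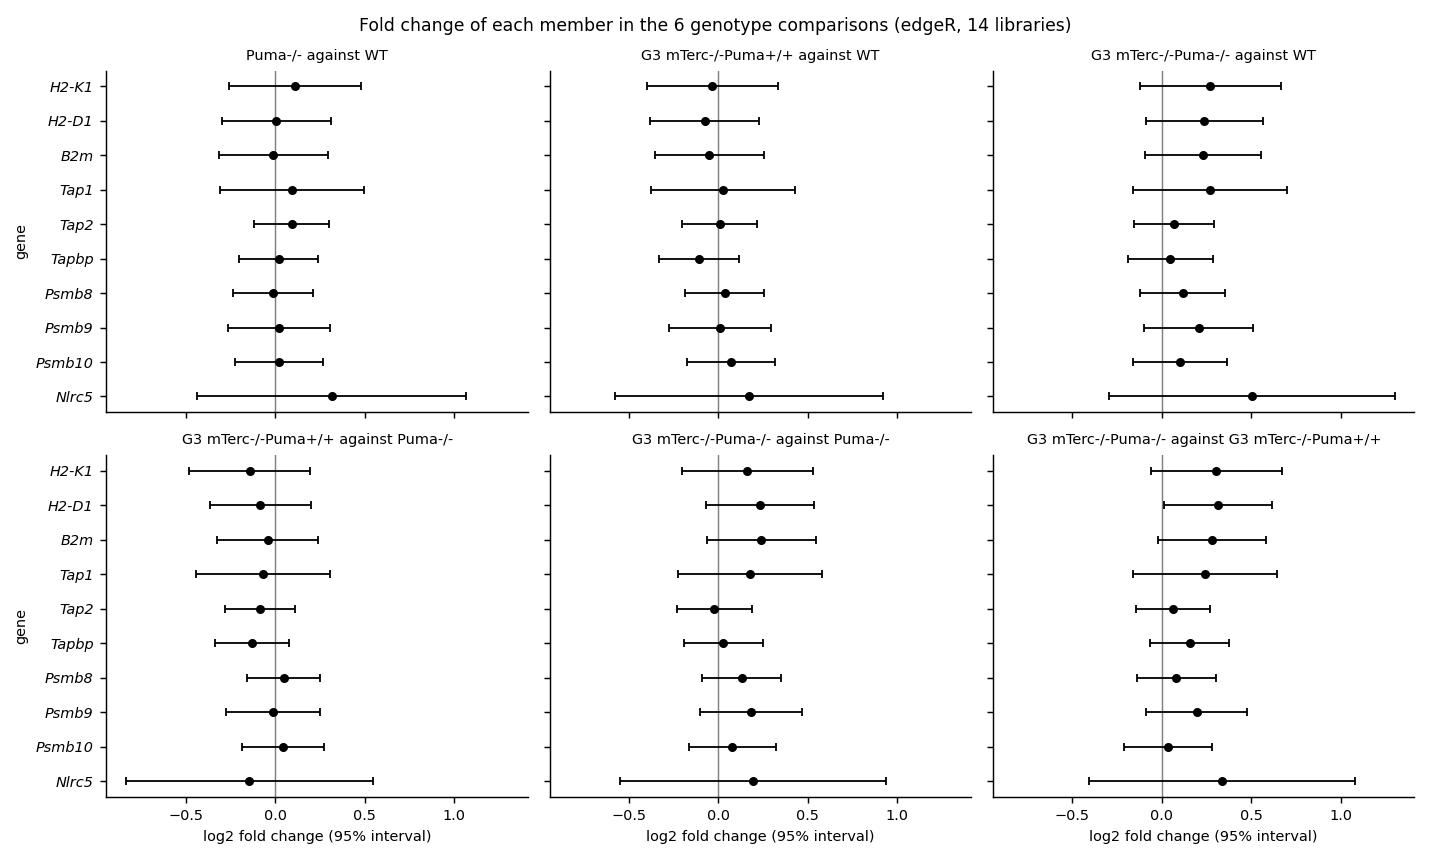
Log2 fold change of each member (point) with its 95% interval (bar) in each of the 6 pairwise comparisons, from the edgeR fit on 14 libraries. All intervals but that of H2-D1 in the comparison of the 2 mTerc-/- groups cross 0, and those of Nlrc5 are the widest.

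Although none was called, the members leaned in one direction in some comparisons. All 10 were higher in the samples labelled G3 mTerc-/-Puma-/- than in G3 mTerc-/-Puma+/+, with a median log2 fold change of 0.22 beside -0.015 over all genes tested. All 10 were also higher in those libraries than in WT (median 0.22, from 0.048 for Tapbp to 0.51 for Nlrc5), and 9 of 10 were higher than in Puma-/- (median 0.17, from -0.022 for Tap2 to 0.24 for B2m). These comparisons share the samples labelled G3 mTerc-/-Puma-/- and are not independent of each other. The members also varied together over the libraries (median r of pairs 0.73), so these counts are not 10 separate results. With replicate 2 included, 8, 8 and 6 of 10 members were higher, and the medians were 0.068, 0.087 and 0.029. Without G3 mTerc-/-Puma+/+ replicate 1, the median between the 2 mTerc-/- groups was 0.37, and without replicate 1 of the samples labelled G3 mTerc-/-Puma-/- it was 0.13. Without WT replicate 1, 8 of 10 were higher than in WT (median 0.13). Against Puma-/- the median was 0.099 without Puma-/- replicate 1, 0.27 without Puma-/- replicate 2 and 0.098 without replicate 1 of the samples labelled G3 mTerc-/-Puma-/-.

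In the other 3 pairwise comparisons the medians were close to 0 and their sign turned on single libraries. For Puma-/- against WT the median log2 fold change was 0.023, with 8 higher and 2 lower, from -0.013 for Psmb8 to 0.32 for Nlrc5. With Xist as a covariate this median was 0.042, with 7 higher and 3 lower. Without Puma-/- replicate 2 or without WT replicate 1, 8 of 10 were lower (medians -0.043 and -0.051), and without WT replicate 2 or without Puma-/- replicate 1 all 10 were higher (medians 0.12 and 0.065). For G3 mTerc-/-Puma+/+ against WT it was 0.0090, with 6 higher and 4 lower, from -0.11 for Tapbp to 0.17 for Nlrc5. All 10 were lower without G3 mTerc-/-Puma+/+ replicate 1 (median -0.16), 9 were lower without WT replicate 1 (median -0.10), and 7 were higher without WT replicate 2 (median 0.12). G3 mTerc-/-Puma+/+ against Puma-/- gave a median of -0.075, with 8 lower, from -0.15 for Nlrc5 to 0.048 for Psmb8. That median was 0.034 without Puma-/- replicate 2, -0.21 without G3 mTerc-/-Puma+/+ replicate 1 and -0.033 with Xist as a covariate. Nlrc5 marked one end of each of these ranges, and its value turned on single libraries, since without Puma-/- replicate 2 it was -0.11 against WT. The interaction, which asks whether the change with mTerc loss differs between the labelled Puma genotypes, had a median of 0.14, from -0.030 for Tap2 to 0.31 for H2-D1 (SE 0.20, edgeR adjusted p 0.999). With replicate 2 included its median was 0.011 with 6 of 10 higher, and leaving out 1 library at a time gave medians from 0.061 (without WT replicate 2) to 0.32 (without G3 mTerc-/-Puma+/+ replicate 1).

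Most of the spread of each member lay between libraries of the same genotype, as it did for the median gene tested. Genotype accounted for a median of 19.6% of the sum of squares of the members' log2 CPM, beside 24.2% over all genes tested, from 7.16% for Psmb10 to 35.9% for H2-D1. With groups of 3 or 4 libraries this share is above 0 even where genotype has no effect. Each member was scaled to its own mean and SD over the 14 libraries (z score), and the mean over the 10 members was taken in each library as a description. That mean was -1.06, 0.59 and -0.26 in WT replicates 1 to 3, and -0.73, 0.998, 0.098 and -0.41 in Puma-/- replicates 1 to 4. It was 1.34, -0.79, -1.11 and -0.70 in the G3 mTerc-/-Puma+/+ replicates, and 1.11, 0.70 and 0.22 in the fitted samples labelled G3 mTerc-/-Puma-/-, with -1.90 in replicate 2. All 10 members were above their own mean in WT replicate 2, Puma-/- replicate 2, G3 mTerc-/-Puma+/+ replicate 1 and replicate 3 of the samples labelled G3 mTerc-/-Puma-/-. In replicate 1 of the last group 9 of 10 were above it, Psmb10 (127 CPM) being the exception.

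**Figure D3:**
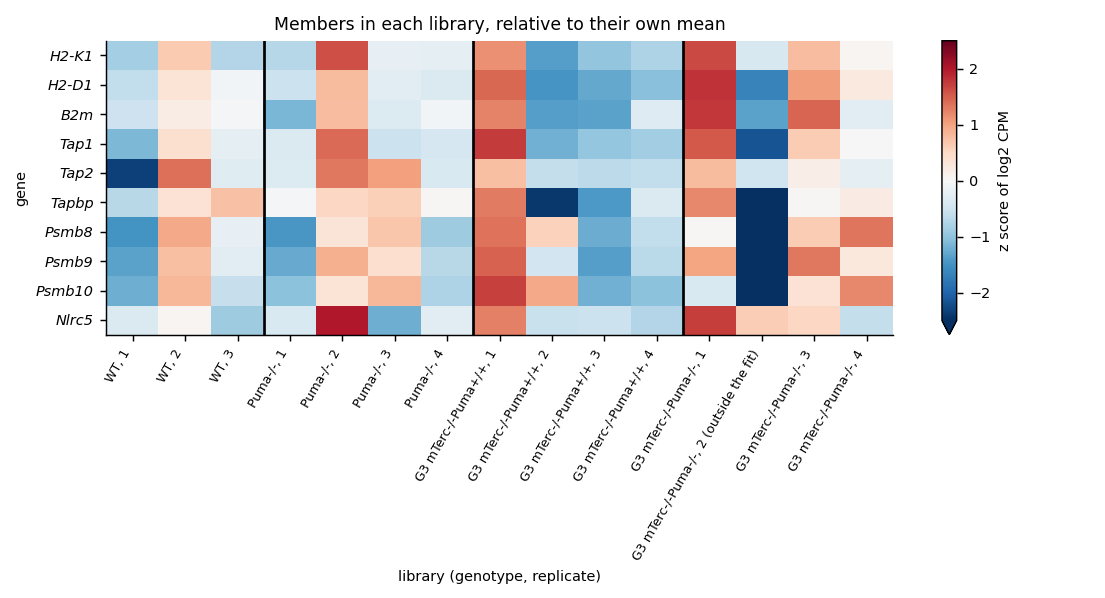
Z score of log2 CPM (colour, mean and SD of the 14 fitted libraries) of each member (rows) in each library (columns, genotype and replicate, black lines between genotypes). Red columns appear in every genotype, and values below the end of the colour scale are drawn in its lowest colour.

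Over the 14 libraries the 45 pairs of members had a median Pearson's r of 0.73 (0.24 to 0.96) and a median Spearman's rho of 0.73 (0.068 to 0.96), and after the genotype means were removed the median r was 0.75. Of these pairs 29 passed with both coefficients at an adjusted p under 0.05 (permutation test, two-sided, 54 relations in the family). Leaving out the 2 libraries farthest from the median of the first gene gave r from 0.16 to 0.96 (median 0.67), and adding replicate 2 gave r from 0.048 to 0.95 (median 0.68). The points share library and depth: the mean z score had r = 0.51 with the total count (permutation p 0.0539, rho 0.38, permutation p 0.186) and r = 0.015 without the 2 libraries farthest from the median total.

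The pairs did not fall evenly. H2-K1, H2-D1, B2m, Tap1 and Nlrc5 had r between 0.76 and 0.96 among themselves, a grouping made after the values were seen and given as a description. H2-K1 and H2-D1 had r = 0.93 and rho = 0.96 (permutation p 1e-05 for each, the smallest that 100000 resamples give, adjusted 0.000135 and 0.000108, r = 0.94 without the 2 farthest libraries). Psmb8 and Psmb10, which lie on different chromosomes, moved together as closely, with r = 0.96 and rho = 0.96 (permutation p 1e-05 for each, adjusted 0.000135 and 0.000108, r = 0.96 without the 2 farthest libraries). Between these sets the relation was looser, and the 10 pairs of Psmb8 or Psmb10 with the 5 genes had r from 0.24 to 0.54. H2-K1 and Psmb8 gave r = 0.52 and rho = 0.55 (permutation p 0.0570 and 0.0432, adjusted 0.0809 and 0.0648). Psmb9 was near both sets, with r = 0.85 to Tap1, its neighbour across the shared start region, r = 0.86 to H2-K1 and r = 0.84 to Psmb8. The difference between these coefficients was not tested.

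**Figure D4:**
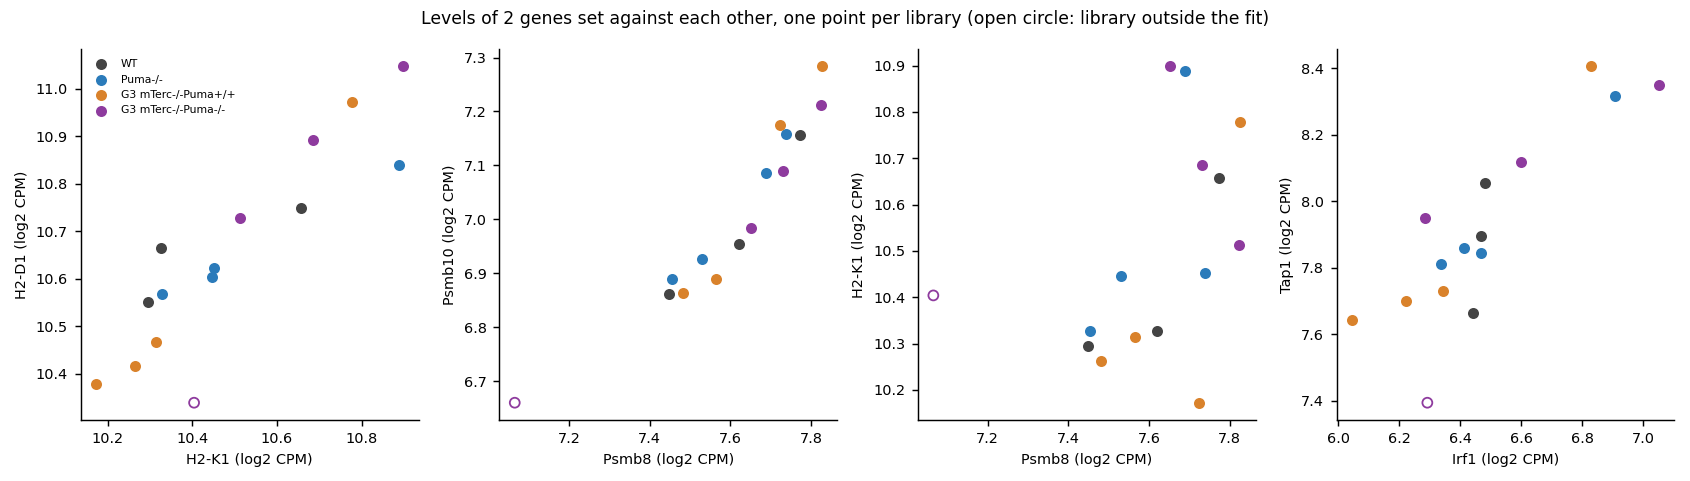
Log2 CPM of 2 genes in each library (1 point per library, coloured by genotype, open circle for the library outside the fit): H2-K1 and H2-D1, Psmb8 and Psmb10, Psmb8 and H2-K1, Irf1 and Tap1. Over the filled points r was 0.93, 0.96, 0.52 and 0.90.

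The constitutive catalytic subunits Psmb5, Psmb6 and Psmb7, which Psmb8, Psmb9 and Psmb10 replace, served as the counterpart. None was called in any comparison, and their log2 fold changes between the 2 mTerc-/- groups were 0.0092, -0.0064 and -0.047. The log2 ratio of CPM of Psmb8 to Psmb5 was 1.43 ± 0.080 (SD, n = 3) for WT, 1.45 ± 0.19 (SD, n = 4) for Puma-/-, 1.33 ± 0.24 (SD, n = 4) for G3 mTerc-/-Puma+/+ and 1.43 ± 0.29 (SD, n = 3) for the samples labelled G3 mTerc-/-Puma-/-. That of Psmb9 to Psmb6 ran from -0.20 to 0.018 between genotype means and that of Psmb10 to Psmb7 from -0.18 to 0.057. These ratios are not per length and compare libraries, not subunits. Over 18 comparisons of genotype means the lowest exact permutation p (two-sided) was 0.143 for Psmb10 to Psmb7 in Puma-/- against WT, a difference of 0.23, and adjusted p-values were 0.910 or more, where comparisons with a group of 4 can give no p below 0.0286 and the 3 comparisons of 3 against 3 libraries none below 0.1, so that the latter could not reach 0.05. Across libraries Psmb10 rose with Psmb6 (r = 0.66, rho = 0.63, permutation p 0.0106 and 0.0179, adjusted 0.0216 and 0.0309, r = 0.72 without the 2 farthest libraries), while Psmb9 had r of 0.065 to 0.13 with the 3 constitutive subunits. Of the 9 such pairs, 3 passed with both coefficients.

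**Figure D5:**
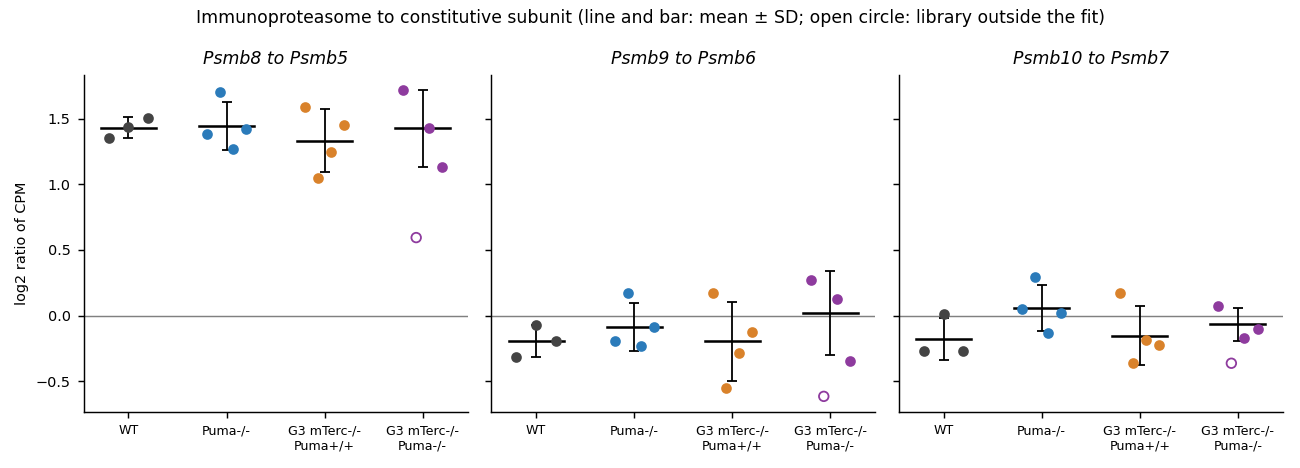
Log2 ratio of CPM of each immunoproteasome subunit to the constitutive subunit it replaces, by library and genotype, with mean and SD as a line and bar and the library outside the fit as an open circle. The Psmb8 to Psmb5 ratio lies between 1.05 and 1.72 in the fitted libraries and at 0.59 in the library outside the fit.

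Of the class I regulators, Irf1 varied with the members, while over the list of 15 regulators the median r with the members' mean z score was 0.081. Irf1, a transcription factor that interferon-gamma induces, was at 86.9, 89.4 and 88.5 CPM in WT, at 85.1, 120.0, 80.8 and 88.6 CPM in Puma-/-, at 114, 66.0, 74.6 and 81.2 CPM in G3 mTerc-/-Puma+/+ and at 133, 97.0 and 77.9 CPM in the samples labelled G3 mTerc-/-Puma-/-, with 78.4 CPM in replicate 2. In each genotype the library with the highest Irf1 was the one with the highest Tap1. Among 49 relations between regulators and members, over which p-values were adjusted, Irf1 passed with both Pearson's and Spearman's coefficients for 7 of 10 members, and its r was 0.19 with Psmb8 and 0.11 with Psmb10. Irf1 and Tap1 had r = 0.90 and rho = 0.82 (permutation p 4.0e-05 and 0.00051, adjusted 0.000327 and 0.00312, r = 0.84 without the 2 farthest libraries).

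Nlrc5 passed with both coefficients for 4 of the 9 other members, H2-K1, H2-D1, B2m and Tap1, with r from 0.76 to 0.88. Its r was 0.27 with Psmb8 and 0.24 with Psmb10. Irf2, a relative of Irf1 that binds the same sites, passed for 3 of 10. Rfx5, a subunit of the factor through which Nlrc5 acts on promoters, passed for 1, Psmb10, in the negative direction (r = -0.63, rho = -0.62, permutation p 0.0177 and 0.0207, adjusted 0.0344 and 0.0441, r = -0.63 without the 2 farthest libraries). Between genotypes, Irf1 had a log2 fold change of 0.29 (SE 0.20, edgeR adjusted p 0.908) in the samples labelled G3 mTerc-/-Puma-/- against G3 mTerc-/-Puma+/+.

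Outside the members, the genes most like their mean z score over the 14 libraries included H2-T22, a non-classical class I heavy chain (r = 0.96, mean 85.5 CPM), Calhm6 (r = 0.96, 3.90 CPM), H2-M3, a non-classical heavy chain that presents formylated peptides (r = 0.93, 38.1 CPM) and Kif5c (r = 0.89, 0.57 CPM). These are descriptions of 14 libraries. Over all 18973 other genes tested the median r was -0.038, and 1.24% had r over 0.7. By list, the median r was 0.77 over 13 other class I heavy chains, 0.74 over 12 GTPases induced by interferon-gamma (the Gbp and Irg families), 0.59 over 16 genes stimulated by type I interferon, -0.11 over the 3 constitutive catalytic subunits and -0.13 over 11 shared subunits of the 20S core. The chaperones and trimming enzymes of peptide loading had -0.29 over 8 genes, with Tapbpl, the tapasin relative, apart from them at 0.83.

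T cell markers varied with the members, although the cells were sorted to lack lineage markers. Of the 8 T and NK cell markers (median r 0.78 with the mean z score), the T cell genes Cd3d, Cd3e, Cd3g, Cd4 and Cd8a had r from 0.73 to 0.85. The NK cell markers Klrb1c, Ncr1 and Nkg7 had r of 0.45, 0.26 and -0.17. Cd3e, a chain of the T cell receptor complex, was at 9.18, 12.6 and 4.95 CPM in WT, at 4.88, 23.8, 5.54 and 4.77 CPM in Puma-/-, at 26.7, 3.596, 5.70 and 7.47 CPM in G3 mTerc-/-Puma+/+ and at 24.5, 17.8 and 8.77 CPM in the samples labelled G3 mTerc-/-Puma-/-, with 14.8 CPM in replicate 2. The libraries with the highest Cd3e in each genotype were those with the highest H2-K1. Cd8a, the T cell co-receptor that binds class I molecules, reached 48.9 CPM in Puma-/- replicate 2 and 50.6 CPM in G3 mTerc-/-Puma+/+ replicate 1, beside 4.70 to 13.4 CPM in the other libraries of those genotypes. The summed level of the list, most of it Nkg7, was 340 to 448 CPM in WT, 346 to 456 in Puma-/-, 418 to 502 in G3 mTerc-/-Puma+/+ and 418 to 673 in all 4 samples labelled G3 mTerc-/-Puma-/-, with r = 0.50 to the mean z score. The part of these cells in the members' levels was not tested, and in bulk RNA a different number of cells of a type and a different amount of RNA per cell cannot be told apart.

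In the comparison of the 2 mTerc-/- groups, markers of other cells were higher in some lists and lower in others. Of 8 B lymphoid markers, 2 were called higher in the samples labelled G3 mTerc-/-Puma-/-, among them Igll1, a chain of the surrogate light chain of pre-B cells (log2 fold change 2.95, SE 0.45, edgeR adjusted p 0.0393), and the list's summed level was 60.9 to 122 CPM in them and 37.7 to 50.5 CPM in G3 mTerc-/-Puma+/+. None was called in the next 4 lists. Erythroid markers were higher in 8 of 8, with 5 at an unadjusted p under 0.05 and a median log2 fold change of 1.51, and their sum had r = 0.55 with the members' mean z score. That sum was 229, 122 and 49.5 CPM in replicates 1, 3 and 4 of the samples labelled G3 mTerc-/-Puma-/-. Replicate 4 thus lay within the ranges of G3 mTerc-/-Puma+/+ (25.5 to 74.1 CPM), WT (41.1 to 77.2 CPM) and Puma-/- (35.5 to 61.0 CPM). Macrophage markers were higher in 7 of 7, with 2 at an unadjusted p under 0.05 and a median of 0.91, and their sum had r = 0.43. Late neutrophil markers showed a median of 1.37, with r = -0.17 for their sum, and T and NK markers one of 0.38. Megakaryocyte markers were lower in 5 of 5 (median -0.59) and progenitor markers in 6 of 9 (median -0.13), with 0 called. In the samples labelled G3 mTerc-/-Puma-/- against WT, 0 markers of the lists named here were called. There T and NK markers were higher in 8 of 8 (median 0.66) and erythroid markers in 8 of 8 (1.25). Macrophage markers were higher in 7 of 7 (0.80) and late neutrophil markers in 7 of 7 (1.56). B lymphoid markers were higher in 6 of 8 and lower in 2 (median 1.43), with 5 higher at an unadjusted p under 0.05. Megakaryocyte markers were lower in 5 of 5 (-0.92). Against Puma-/-, edgeR called 4 of 5 megakaryocyte markers lower (Pf4, Ppbp, Gp9 and Gp1bb, list median -2.01) and 1 of 8 B lymphoid markers higher (Igll1). Erythroid markers were higher in 8 of 8 (median 1.63), with 6 at an unadjusted p under 0.05 and 0 called. Late neutrophil markers were higher in 7 of 7 (median 1.23), with 4 at an unadjusted p under 0.05 and 0 called. Dendritic cell and MHC class II markers were lower in 6 of 7 and higher in 1 (median -0.72), with 4 lower at an unadjusted p under 0.05. That list had 0 called here, as against WT (5 of 7 lower, median -0.23) and against G3 mTerc-/-Puma+/+ (7 of 7 higher, median 0.23). The part of these cells in the members' values was not tested.

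Among the other genes of the pathway, none of those tested in 9 lists was called in any comparison by the edgeR fit to 14 libraries and 4 genotypes, while DESeq2 called some of them. The 13 tested heavy chains of the Qa, T and M regions showed a median log2 fold change of 0.42 in the samples labelled G3 mTerc-/-Puma-/- against G3 mTerc-/-Puma+/+, with 12 higher and 3 at an unadjusted p under 0.05. H2-Q10, a secreted class I heavy chain, was at 2.09 to 3.12 CPM in G3 mTerc-/-Puma+/+ and 3.85 to 5.64 CPM in Puma-/- libraries, ranges that do not overlap (log2 fold change -0.98, SE 0.22, edgeR adjusted p 0.0527), and its log2 fold change in Puma-/- against WT was 0.71 (SE 0.24, adjusted p 0.403). With DESeq2 the first of these had an adjusted p of 0.000662, and with only the 2 compared genotypes in the edgeR fit it had 0.0497. H2-Q10 is a low gene with near-identical relatives, and reads may be split between them.

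Between the 2 mTerc-/- groups, the largest median log2 fold change among these lists belonged to genes stimulated by type I interferon. All 16 were higher in the samples labelled G3 mTerc-/-Puma-/- than in G3 mTerc-/-Puma+/+, 13 of them at an unadjusted p under 0.05 (6.22% of all genes) and 0 of them called, with a median log2 fold change of 0.82. Ifit3 was at 0.46 to 1.88 CPM in G3 mTerc-/-Puma+/+ and 2.04 to 3.68 CPM in the samples labelled G3 mTerc-/-Puma-/- (log2 fold change 1.57, SE 0.41, adjusted p 0.273). Ifi44 gave 1.49 (SE 0.35, adjusted p 0.179) and Ifit1 1.22 (SE 0.31, adjusted p 0.256), and DESeq2 called these 3 with adjusted p-values of 0.0149, 0.00446 and 0.0156. The 12 interferon-gamma-induced GTPases had a median of 0.32 in the same comparison, with 12 higher and 0 at an unadjusted p under 0.05.

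In the samples labelled G3 mTerc-/-Puma-/- against WT, Ifi44, Ifit3 and Ifit1 had log2 fold changes of 1.28 (SE 0.38), 1.06 (SE 0.45) and 1.02 (SE 0.34), with edgeR adjusted p-values of 0.511, 0.842 and 0.612. In G3 mTerc-/-Puma+/+ against Puma-/-, Ifit3 had -1.27 (SE 0.39, adjusted p 0.130) and Ifi44 -1.01 (SE 0.33, adjusted p 0.150), and in Puma-/- against WT, Ifi44 had 0.80 (SE 0.36, adjusted p 0.484) and Rtp4 0.73 (SE 0.29, adjusted p 0.441). Ciita, the class II counterpart of Nlrc5, had -0.75 (SE 0.19, adjusted p 0.172) in the samples labelled G3 mTerc-/-Puma-/- against Puma-/- and -0.63 (SE 0.27, adjusted p 0.980) in the interaction. In the same pairwise comparison Oas1a had 0.48 (SE 0.17, adjusted p 0.428) and Gbp3 0.40 (SE 0.14, adjusted p 0.422), and Bst2, which tethers virions at the cell surface, had 0.43 (SE 0.16, adjusted p 0.902) in the interaction. In G3 mTerc-/-Puma+/+ against WT no gene of these lists met the rule for naming. The constitutive and shared proteasome subunits gave medians of -0.0064 and -0.078 between the 2 mTerc-/- groups, with 0 of 14 called.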

How the data were processed

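Total RNA of lineage-marker negative bone marrow cells was made into poly(A)-selected, stranded libraries. Per the labels and the study's methods, the authors trimmed reads with Trimmomatic 0.38 and aligned and counted them with STAR 2.5.2b on GRCm38 (mm10). The deposited values are raw counts per gene (45706 genes, 15 libraries). The annotation release and the strand setting are not given in the sources used here. Symbols were matched for 45143 identifiers through GENCODE vM21.

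Counts were scaled by TMM and tested in R 4.3.3 with edgeR 4.0.16 (filterByExpr, glmQLFit, glmQLFTest) in 1 fit over 4 genotypes and 14 libraries, with Benjamini-Hochberg adjustment over 18983 genes and a threshold of 0.05. Normalised CPM are counts scaled to TMM-adjusted library size, and a prior count of 2 was added for log2 CPM. Correlations were tested with 100000 permutations, and subunit ratios with exact permutation tests. As a check for a library deposited in duplicate, replicates were compared by chi-square per gene (41.8 to 772), and none agreed within counting noise. Alternatives were 15 libraries, library size alone, other filters, a replicate block, only the compared genotypes, DESeq2 1.42.0, limma-voom 3.58.1, an Xist covariate and leaving out each library.

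The members and gene lists were chosen with earlier results of these data known. Named were all members, the regulators Irf1, Irf2 and Rfx5, the constitutive subunits, the 5 genes most like the members, and, per comparison, up to 3 other pathway genes with the largest change at an unadjusted p under 0.05. The T and NK cell and megakaryocyte markers, Igll1 and Tapbpl were named after their values were seen. Some results under this rule are not reported here.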

Additional observations from a re-analysis of the deposited data

Results flagged for a closer look

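Within 39 groups of 4 libraries tested by Dixon's ratio, 5 had a library far from the others, where chance flags about 1 in 20 groups. G3 mTerc-/-Puma+/+ replicate 1 stood apart for H2-D1 (2008 CPM, the next highest library of its genotype at 1416), Tap1 (339 CPM, next 212), Tap2 (115 CPM, next 102) and Nlrc5 (133 CPM, next 73.7). Puma-/- replicate 2 stood apart for Tap1 (319 CPM, next 232). These are the 2 libraries with the highest Cd8a of the 15, at 50.6 and 48.9 CPM, and G3 mTerc-/-Puma+/+ replicate 1 was the second deepest, with 134106521 counts. The part of either in these levels was not tested.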

How the results depend on the processing

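The count of called members was 0 in all 118 combinations of comparison and alternative setting that were run, with a lowest adjusted p of 0.132. The replicate numbers did not pair the libraries (18 same-number pairs, r from -0.29 to 0.15, 4 over 0.1), and with a replicate block 0 of 10 members were called in each comparison. Counts of called genes over all genes moved more, and DESeq2 gave the highest in each comparison: 15 (11 to 136) for Puma-/- against WT, 7 (1 to 46) for G3 mTerc-/-Puma+/+ against WT, 12 (1 to 91) for the samples labelled G3 mTerc-/-Puma-/- against WT, 152 (18 with the Xist covariate, to 996) for G3 mTerc-/-Puma+/+ against Puma-/-, 58 (18 to 287) for the samples labelled G3 mTerc-/-Puma-/- against Puma-/-, 14 (2 to 172) for the 2 mTerc-/- groups and 10 (5 to 64) for the interaction. Xist levels of Puma-/- libraries overlap neither with those of G3 mTerc-/-Puma+/+ libraries nor with those of WT libraries.

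Some small values changed sign. With 15 libraries, log2 fold changes were -0.078 for Tapbp (samples labelled G3 mTerc-/-Puma-/- against WT), and -0.060 for Psmb8 and -0.065 for Psmb10 (against G3 mTerc-/-Puma+/+). Psmb8 in Puma-/- against WT was 0.047 with library size alone, 0.0026 with the block and 0.0064 with the Xist covariate. Tap2 in the samples labelled G3 mTerc-/-Puma-/- against Puma-/- was 0.016 with the block, and Nlrc5 in G3 mTerc-/-Puma+/+ against Puma-/- was 0.029 with the Xist covariate. The cause was not tested.

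Leaving out 1 library at a time moved Nlrc5 from -0.11 (without Puma-/- replicate 2) to 0.47 in Puma-/- against WT, from -0.43 to 0.27 (without Puma-/- replicate 2) in G3 mTerc-/-Puma+/+ against Puma-/-, and from -0.13 (without G3 mTerc-/-Puma+/+ replicate 1) to 0.28 in G3 mTerc-/-Puma+/+ against WT. Psmb8 ran from -0.10 to 0.070 in Puma-/- against WT and from -0.023 to 0.10 in G3 mTerc-/-Puma+/+ against Puma-/-. For the samples labelled G3 mTerc-/-Puma-/-, Tapbp ran from -0.020 to 0.090 against WT, Tap2 from -0.057 to 0.014 against Puma-/- and Psmb10 from -0.027 to 0.13 against G3 mTerc-/-Puma+/+. Tap2 in the interaction ran from -0.15 to 0.097. Between the 2 mTerc-/- groups, leaving out G3 mTerc-/-Puma+/+ replicate 1 gave each member its highest value. There the values ran from 0.20 to 0.46 for H2-K1, 0.23 to 0.48 for H2-D1, 0.20 to 0.41 for B2m, 0.13 to 0.47 for Tap1, 0.027 to 0.12 for Tap2, 0.076 to 0.27 for Tapbp, 0.029 to 0.15 for Psmb8, 0.13 to 0.32 for Psmb9 and 0.012 to 0.62 for Nlrc5. Nlrc5 in the samples labelled G3 mTerc-/-Puma-/- against Puma-/- ran from -0.13 to 0.61.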
